A study of Mus musculus with 9 samples.

Results

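The genes described here are 10 effector genes of the type I interferon response: Oasl2, Parp14, Irf7, Ifi44, Ifit3, Isg15, Bst2, Usp18, Rtp4 and Xaf1. They are 10 of the 13588 entries in the expression table of this series, found by matching mouse Ensembl identifiers to the named symbols, and all 10 had an entry. The genes were chosen by their measured values in these same libraries, since the comparison of AAV-Cre mice labelled obese with AAV-GFP mice was in view when the list was drawn up. The values of the obese-labelled mice are therefore given as a description and not as evidence that these genes differ.

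Type I interferons are secreted cytokines that bind a receptor of paired subunits, Ifnar1 and Ifnar2, on nearly every cell type. The receptor-associated kinases Jak1 and Tyk2 then activate transcription factors, Stat2 among them. In a complex with Irf9, these switch on antiviral genes in the nucleus through an interferon-stimulated response element in the promoters of those genes. In the brain the response is best known from viral infection and from microglia, and many of the products act directly on viral RNA, viral budding or cell survival, while others restrain the response itself.

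Gene expression was measured by RNA-seq in laser-captured regions of the mediobasal hypothalamus of 9 male C57/BL6 mice, a library for each mouse. All mice, controls included, carried the floxed Snord116tm1Uta/J allele of a small nucleolar RNA cluster in the Prader-Willi region, and were injected as adults in the mediobasal hypothalamus, with brains taken 10 weeks later. The 3 groups of 3 mice received AAV-GFP (GFP 1 to 3), AAV-Cre with an obese weight label (obese 1 to 3), or AAV-Cre with a nonobese weight label (nonobese 1 to 3), and the 6 AAV-Cre sample titles contradict these weight labels, which were used here to name the groups. Cre was driven by the CAG promoter, which is not restricted to a cell type, and Gfp by the CMV promoter, and the AAV-Cre virus was given at the higher titre. Effects of the deletion, of the transgene and of the vector cannot be told apart in AAV-Cre against AAV-GFP. Regions were captured where adjacent sections stained for Cre, and matching regions were taken from AAV-GFP mice.

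The position of each gene is given on GRCm38. Oasl2 lies on chr5:114896936-114912234, Parp14 on chr16:35832874-35871544, Irf7 on chr7:141262706-141266481, Ifi44 on chr3:151730922-151749960 and Ifit3 on chr19:34583531-34588731. Isg15 lies on chr4:156199424-156200818, Bst2 on chr8:71534255-71537456, Usp18 on chr6:121245906-121270917, Rtp4 on chr16:23520291-23614222 and Xaf1 on chr11:72301629-72313733. All 10 are protein-coding, and no pair of them overlaps.

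Of the 10 genes, 7 had a promoter in the RefSeq table for GRCm38.p6, which covers 250 bases before to 50 bases after the start: Oasl2, Irf7, Ifi44, Ifit3, Isg15, Bst2 and Xaf1. The letters GAAA, any 2 bases and GAAA again, which form the core of the interferon-stimulated response element, were searched on both strands. They were found in 3 of these 7 promoters (Isg15, Bst2 and Ifit3), against 3.44% of the 32851 promoters in the table. Some genes have several promoters in the table, and of the other interferon pathway genes 11 of 36 held the letters in at least 1 promoter, against 3.99% of all 27025 genes counted the same way. A shorter run, GAAA, any 2 bases and GAA, which every match above contains, occurred in 4 of the 7 promoters and in 8.56% of all promoters. The stretches below are shown because these genes share the letters through which the pathway is known to act. They are written 5′ to 3′ on the strand of the gene, with the matched letters in capitals, where adjoining capitals in Isg15 hold 3 overlapping matches and those in Bst2 hold 2. In Ifit3 the match is on the opposite strand, so the capitals show its reverse complement.
Isg15, chr4:156200865-156200906, minus strand, capitals starting 78 bases before the start: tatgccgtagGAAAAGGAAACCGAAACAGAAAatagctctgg
Bst2, chr8:71537577-71537612, minus strand, capitals starting 130 bases before the start: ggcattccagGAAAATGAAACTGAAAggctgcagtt
Ifit3, chr19:34583363-34583392, plus strand, capitals starting 156 bases before the start: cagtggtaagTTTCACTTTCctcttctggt
Ifit3, chr19:34583397-34583426, plus strand, capitals starting 122 bases before the start: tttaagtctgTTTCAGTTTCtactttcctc
The neighbouring gene Ifit3b carried the same letters as both Ifit3 stretches, on chr19:34607759-34607788 and chr19:34607793-34607822. There the capitals start 188 and 154 bases before its own start. A match is a description of letters and not evidence of binding, and the promoters without a match say nothing of the factor.

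Expression is given as the deposited signal, which is reads over a TMM-scaled library size, on the scale of CPM. Between 3929672 and 5766994 reads were counted per library, and 3 reads corresponded to a signal of 0.525 to 0.786. The targeted Snord116 genes could not be checked, since 0 of the 17 annotated copies had an entry. Cre was at 0 to 5 reads in AAV-GFP libraries, and Gfp was at 0 in all 6 AAV-Cre libraries. Cre signal in the AAV-Cre libraries was 1330, 8557 and 235 in obese 1, 2 and 3, and 4644, 5136 and 7064 in nonobese 1, 2 and 3. The libraries obese 1 and obese 3 stood apart from the other 7 in markers of immune cells, with summed microglial markers of 689 and 567 against 109 to 158. Their summed B and plasma cell markers were 2606 and 4864 against 0.777 to 71.3. Because of this, results that rest on these libraries are given with and without them. In tissue RNA, a different number of cells of a type and a different amount of RNA per cell cannot be told apart.

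All 10 effector genes had their 2 highest values of the 9 libraries in obese 1 and obese 3, an arrangement found in 9.34% of all tested entries. In obese 1 the signal was 5.63 to 28.5 times the AAV-GFP mean, and in obese 3 it was 3.43 to 24.0 times that mean. In obese 2 it was between 0 and 4.14 times the AAV-GFP mean, with a median of 1.34 times. In the nonobese-labelled mice, no gene was above every AAV-GFP mouse in all 3 mice, and the group mean lay below the AAV-GFP mean for 9 of the 10 genes. Of the 90 values behind these statements, 13 rest on at most 3 reads and 6 are 0. The same libraries, obese 1 and obese 3, had the lowest Cre signal of the AAV-Cre mice and the highest immune marker sums, and the part of either in the effector gene values was not tested.

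**Figure D1:**
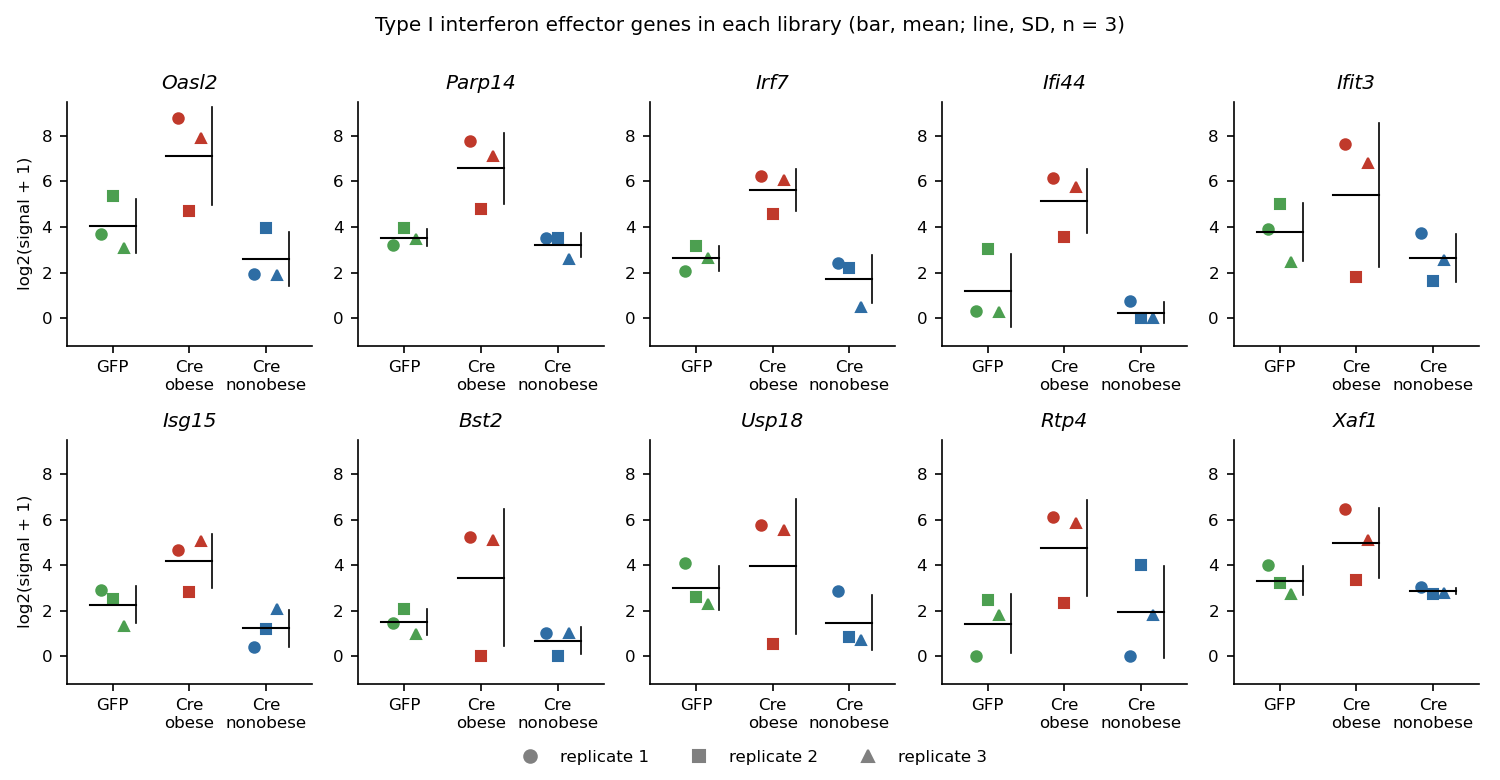
Signal of each effector gene in each library as log2(signal + 1) (vertical axis), by group on the horizontal axis, with circles, squares and triangles for replicates 1, 2 and 3, horizontal bars for the group mean and vertical lines for the SD of 3 mice. In every panel the circle and triangle of the obese group are the highest points, while its square lies near or below the AAV-GFP points in most panels.

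Irf7, the transcription factor that is induced by interferon and in turn drives further interferon production, had a signal of 3.24, 8.04 and 5.24 in GFP 1, 2 and 3, of 73.6, 22.7 and 66.4 in obese 1, 2 and 3, and of 4.37, 3.67 and 0.427 in nonobese 1, 2 and 3. All 3 obese-labelled mice were above all 6 others, and the nonobese-labelled mice overlapped with AAV-GFP. The log2 fold change (log2 FC) on the log2(signal + 1) scale was 2.99 (SE 0.68) in obese-labelled against AAV-GFP mice and -0.91 (SE 0.68) in nonobese-labelled against AAV-GFP mice. Irf7 overlaps Phrf1 on the opposite strand, and since the strand setting of the counting is not given in the sources used here, reads from the 2 genes may not have been kept apart.

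Oasl2, a member of the oligoadenylate synthetase family of proteins that sense double-stranded RNA, had a signal of 11.97, 40.4 and 7.38 in GFP 1, 2 and 3, of 434, 25.0 and 238 in obese 1, 2 and 3, and of 2.80, 14.7 and 2.77 in nonobese 1, 2 and 3. Obese 2 lay inside the AAV-GFP range, and nonobese 1 and 3 lay below it. The log2 FC against AAV-GFP was 3.08 (SE 0.74) for the obese label and -1.44 (SE 0.74) for the nonobese label.

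Ifit3, which belongs to a family of proteins that bind viral RNA lacking the marks of host RNA, was at 14.0, 30.8 and 4.47 in GFP 1, 2 and 3, at 196, 2.50 and 111 in obese 1, 2 and 3, and at 12.4, 2.10 and 4.91 in nonobese 1, 2 and 3. Obese 2 was below every AAV-GFP mouse, so the obese-labelled group spanned values both above and below the controls. The log2 FC was 1.63 (SE 0.96) for the obese label and -1.14 (SE 0.96) for the nonobese label. Of the 50-base windows in the Ifit3 transcripts, 51.2% also occur in Ifit3b, so the split of reads between these neighbours is uncertain.

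Isg15 and Usp18 form a pair: Isg15 is a small ubiquitin-like protein that is attached to other proteins, and Usp18 removes it and also dampens signalling at the interferon receptor. Isg15 was at 6.48, 4.79 and 1.55 in GFP 1, 2 and 3, at 24.1, 6.13 and 32.3 in obese 1, 2 and 3, and at 0.350, 1.31 and 3.20 in nonobese 1, 2 and 3. It was the only one of the 10 genes with a higher signal in obese 3 than in obese 1. Usp18 was at 16.2, 5.17 and 3.88 in GFP 1, 2 and 3, at 52.6, 0.454 and 45.8 in obese 1, 2 and 3, and at 6.30, 0.786 and 0.640 in nonobese 1, 2 and 3. The obese 2 value of Usp18 rests on 2 reads and was the lowest of the 9 libraries. The log2 FC for the obese label was 1.92 (SE 0.80) for Isg15 and 0.94 (SE 1.02) for Usp18, the smallest of the 10 genes. For the nonobese label it was -1.03 (SE 0.80) for Isg15 and -1.53 (SE 1.02) for Usp18. Gm44148 overlaps Usp18 on the opposite strand.

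Bst2, also called tetherin, which holds budding virus particles at the cell surface, was at 1.75, 3.26 and 0.971 in GFP 1, 2 and 3. It was at 37.1 and 33.7 in obese 1 and 3 and at 0 in obese 2, where 0 reads allow a signal of up to 0.681. In nonobese 1, 2 and 3 it was at 1.05, 0 and 1.07. The log2 FC was 1.95 (SE 1.09) for the obese label and -0.81 (SE 1.09) for the nonobese label.

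Parp14, an enzyme that attaches ADP-ribose to proteins, was at 8.23, 14.4 and 10.1 in GFP 1, 2 and 3. It was at 219, 27.0 and 138 in obese 1, 2 and 3 and at 10.5, 10.5 and 5.12 in nonobese 1, 2 and 3. As for Irf7, all 3 obese-labelled mice were above all 6 others. The log2 FC was 3.03 (SE 0.56) for the obese label and -0.32 (SE 0.56) for the nonobese label. A gene model on the same strand, Gm49730, overlaps Parp14 and shares 0.667% of its 50-base windows.

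Ifi44, an interferon-induced protein of the cytoplasm, was at 0.249, 7.28 and 0.194 in GFP 1, 2 and 3, of which GFP 1 and GFP 3 rest on 1 read each. It was at 70.4, 10.7 and 52.5 in obese 1, 2 and 3 and at 0.700, 0 and 0 in nonobese 1, 2 and 3. All obese-labelled mice were above all others here too, and the log2 FC was the largest of the 10 genes for this label, at 3.94 (SE 0.91). For the nonobese label it was -0.95 (SE 0.91).

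Rtp4, a chaperone for some G protein-coupled receptors that interferon also induces, was the exception among the nonobese-labelled mice. It was at 0, 4.60 and 2.52 in GFP 1, 2 and 3, at 67.7, 4.09 and 56.9 in obese 1, 2 and 3, and at 0, 15.2 and 2.56 in nonobese 1, 2 and 3, where the nonobese 2 value was above every AAV-GFP mouse and above obese 2. The log2 FC was 3.33 (SE 1.01) for the obese label and 0.52 (SE 1.01) for the nonobese label. Rtp4 overlaps Gm45338 on its own strand, with 11.6% of its 50-base windows shared, and Masp1 on the other strand.

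Xaf1, a protein that counters an inhibitor of cell death, was at 15.0, 8.23 and 5.63 in GFP 1, 2 and 3, at 87.1, 9.30 and 33.0 in obese 1, 2 and 3, and at 7.17, 5.76 and 5.97 in nonobese 1, 2 and 3. Obese 2 lay within the AAV-GFP range, and the nonobese-labelled mice were close together within it. The log2 FC was 1.66 (SE 0.65) for the obese label and -0.45 (SE 0.65) for the nonobese label.

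**Figure D2:**
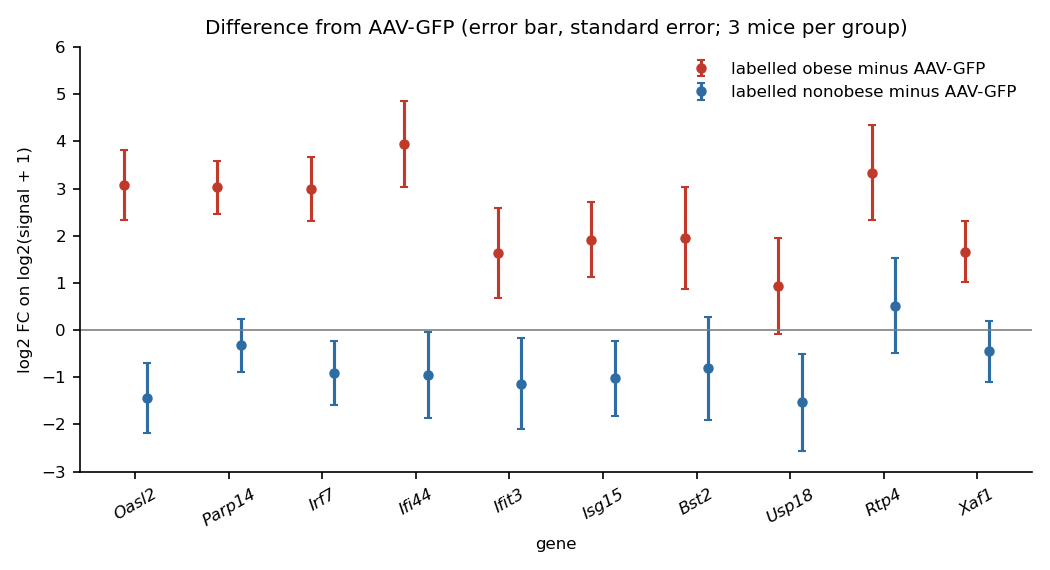
Log2 FC on the log2(signal + 1) scale against AAV-GFP (vertical axis) for each effector gene (horizontal axis), in red for the obese label and in blue for the nonobese label, with the standard error of the fit over 3 mice per group. The red points lie between 0.94 and 3.94 and the blue points between -1.53 and 0.52.

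In AAV-GFP mice the levels of the 10 genes could be ranked per kilobase of exon. Ifit3 had the highest signal per kb, 9.41 ± 7.65 (SD, n = 3), followed by Isg15 at 5.65 ± 3.31, Oasl2 at 3.12 ± 2.81 and Usp18 at 3.02 ± 2.43. Next in signal per kb came Bst2 at 2.20 ± 1.29, Xaf1 at 2.05 ± 1.03, Irf7 at 1.46 ± 0.64, Parp14 at 1.17 ± 0.34, Rtp4 at 1.11 ± 1.08 and Ifi44 at 0.42 ± 0.67. No neighbours in this order differed by more than the larger of their SDs. The mice were not alike in level, since GFP 2 had the highest signal of the 3 for 7 genes and GFP 1 for the other 3, and GFP 3 had the lowest for 7. The mean log2(signal + 1) over the 10 genes was 2.57, 3.35 and 2.11 in GFP 1, 2 and 3. In obese 1 and 3 that mean was 6.48 and 6.03, and in obese 2, at 2.85, it fell between the AAV-GFP mice. It was 1.98, 2.02 and 1.61 in the nonobese-labelled mice, all below the 3 AAV-GFP mice.

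The obese-labelled mice as a group were compared with AAV-GFP by limma, over 13506 tested entries. An FDR under 0.1, here called a change, was reached by 4 of the 10 genes (Parp14, Irf7, Ifi44 and Oasl2), all higher, beside 0.555% of all tested entries. This count is a description, since the genes were chosen on this comparison. It was decided by single libraries: it became 10 without obese 2, 0 without obese 1, obese 3 or GFP 1, and 1 without GFP 3. The share of all entries called in those fits is not given here. The counts therefore show only the dependence on single mice. All 3 obese-labelled mice were above all 3 AAV-GFP mice for 3 genes (Parp14, Irf7 and Ifi44), beside 7.18% of all tested entries. They were above all 3 nonobese-labelled mice for 6 genes, beside 6.65%.

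Without obese 1 and obese 3, obese 2 alone stood for its label. It was above every AAV-GFP mouse for Parp14, Irf7 and Ifi44, beside 29.1% of all tested entries, below every AAV-GFP mouse for Ifit3, Bst2 and Usp18, beside 31.7%, and within their range for the other 4. These shares are near those of all entries. When the lone mouse was assumed to vary like the other groups, the number of changed effector genes was 0, and the log2 FC of Ifit3, Bst2 and Usp18 turned to -1.98, -1.51 and -2.47.

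**Figure D3:**
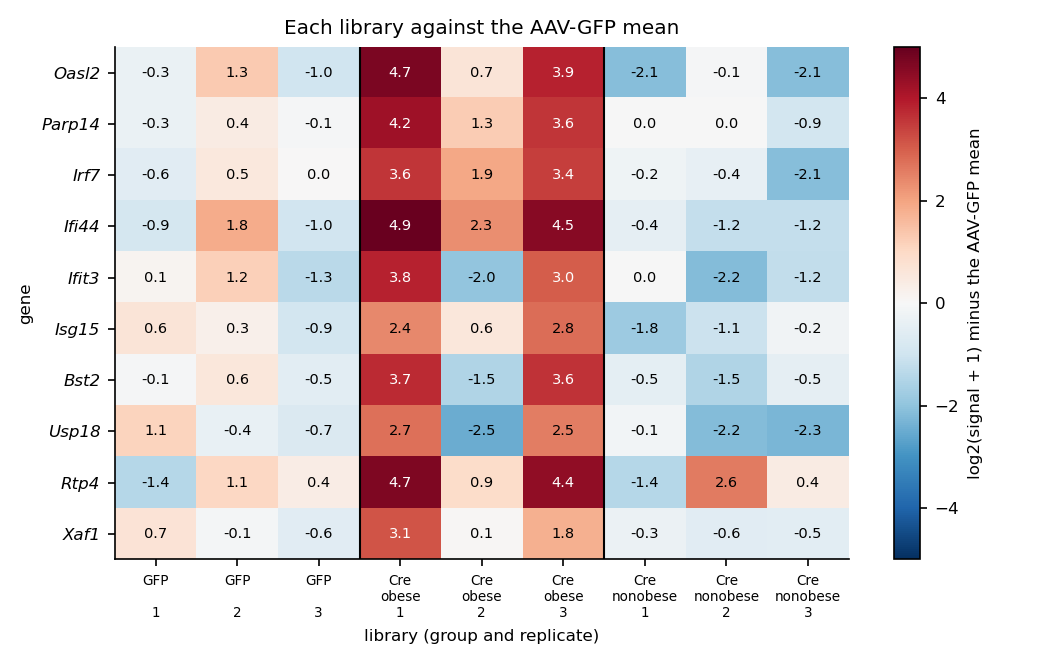
Difference of log2(signal + 1) from the AAV-GFP mean for each effector gene (rows) in each library (columns), with red for higher and blue for lower and the value printed in each cell. The obese 1 and obese 3 columns are red in every row, with values of 1.8 to 4.9, and the obese 2 column holds both signs.

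To ask whether the effector genes also moved in AAV-Cre mice without the obese label, the nonobese-labelled mice were compared with AAV-GFP. By limma, 0 of the 10 genes changed (FDR = 0.999 for each), beside 0.0148% of all tested entries, and 0 had an unadjusted p under 0.05. At that p, 140 of the 13506 tested entries were higher and 166 lower. The smallest unadjusted p of the 10 genes was 0.0638, for Oasl2. The count of changed genes was also 0 in edgeR and DESeq2 on the recovered reads and with each mouse left out in turn. The median log2 FC of the 10 genes was -0.93, beside -0.02 for all tested entries. In 9 of the 10 genes, with Rtp4 as the exception, all 3 mice were below the AAV-GFP mean, an arrangement seen in 19.7% of all tested entries. For 0 genes were all 3 mice below all 3 AAV-GFP mice, which was seen in 5.15% of entries. These values share the AAV-GFP mice with the comparison on which the genes were chosen.

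The labels were then compared with each other, again as a description because it rests on the same obese-labelled mice. The log2 FC of obese-labelled against nonobese-labelled mice ran from 2.11 (SE 0.65) for Xaf1 to 4.89 (SE 0.91) for Ifi44, with a median of 2.88. The same 4 genes, Parp14, Irf7, Ifi44 and Oasl2, were changed, beside 0.948% of all tested entries. That count was 10 without obese 2 and 0 without obese 1 or without obese 3, and the share of all entries in those fits is not given here. With all 6 AAV-Cre mice against AAV-GFP, 0 of the 10 genes were changed by limma, beside 0.0444% of all tested entries, and 2, Parp14 and Rtp4, had an unadjusted p under 0.05. At that p, 324 of the 13506 tested entries were higher and 258 lower. The count of changed effector genes was 0 in edgeR and DESeq2 as well, and 1 without obese 2.

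The rest of the pathway was described from a list of 54 further genes, of which 45 had an entry. None of the 7 ligands listed, Ifnb1, Ifna1, Ifna2, Ifna4, Ifnk, Ifne and Ifnz, had an entry, so transcripts of these interferons are not analysed here. Interferon gamma and its receptor were not on the list. In obese-labelled against AAV-GFP mice, 5 of the 45 genes were higher, including Ptpn6, Cd274, Lgals3bp and Parp9, and 0 lower, beside 0.555% of all tested entries called. The median log2 FC was 1.76, beside -0.04 for all tested entries. Without obese 2 the count was 29, and without obese 1, obese 3, GFP 1 or GFP 3 it was 0. For these fits, too, the share of all entries called is not given here. The list was drawn up with earlier results of these libraries known, so its direction is not independent of them.

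The receptor subunits had no called change. Ifnar1 was at 40.9, 39.1 and 25.2 in GFP 1, 2 and 3 and at 52.2, 25.6 and 32.8 in obese 1, 2 and 3, with a log2 FC of 0.04 (SE 0.42, FDR = 0.983). The obese-labelled and AAV-GFP values of Ifnar1 overlapped. Ifnar2 had a log2 FC of 0.74 (SE 0.56, FDR = 0.704), and its value of 36.0 in obese 1 was the highest of the 9 libraries.

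Of the signalling genes, the receptor kinases were not called. Jak1 had a log2 FC of 0.23 (SE 0.20, FDR = 0.756) and Tyk2 one of 0.39 (SE 0.61, FDR = 0.882). Stat2 and Irf9, which act in the complex that binds the response element, had log2 FCs of 1.61 (SE 0.68, FDR = 0.417) and 1.76 (SE 0.54, FDR = 0.218). Irf3, a factor that starts interferon transcription, had one of 1.06 (SE 0.70, FDR = 0.652).

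Of 5 inhibitors of the pathway, Ptpn6, a phosphatase abundant in leukocytes that turns off cytokine receptors, was higher in obese-labelled than in AAV-GFP mice. Its signal was 2.49, 2.11 and 2.33 in GFP 1, 2 and 3 and 140.6, 7.04 and 90.8 in obese 1, 2 and 3 (log2 FC = 3.83, SE 0.81, FDR = 0.0332), with no overlap between these groups. Socs3, a feedback inhibitor of cytokine signalling, followed another pattern, at 3.99, 0.766 and 1.75 in GFP 1, 2 and 3 and at 30.1, 20.4 and 3.95 in obese 1, 2 and 3 (log2 FC = 2.36, SE 0.79, FDR = 0.254). Here obese 2 was well above the AAV-GFP mice, while obese 3 was below GFP 1. The remaining inhibitors, Socs1, Usp25 and Pias1, had log2 FCs of 1.78, 1.28 and 0.11, none of which was called.

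Of 32 other genes listed as targets of the pathway and with an entry, 3 were higher in obese-labelled than in AAV-GFP mice. All 32 had a log2 FC above 0, with a median of 1.97. Of all 13506 tested entries, 0.555% were called in this comparison and 6347 had a log2 FC above 0. Cd274, the checkpoint ligand PD-L1, was at 322, 16.8 and 123 in obese 1, 2 and 3 against 7.73 to 15.3 in AAV-GFP mice (log2 FC = 2.93, SE 0.66, FDR = 0.0559). Parp9, which works beside Parp14 in the same enzyme family, was at 52.0, 23.8 and 39.7 against 2.24 to 5.44 (log2 FC = 2.96, SE 0.65, FDR = 0.0454). Lgals3bp, a secreted glycoprotein, was at 233, 37.2 and 262 against 22.4 to 52.5 (log2 FC = 2.08, SE 0.48, FDR = 0.0563). The groups did not overlap for Cd274 and Parp9, and they did for Lgals3bp. Ifi44l and Oas1a had no entry.

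In nonobese-labelled against AAV-GFP mice, 0 of the 45 pathway genes were called by limma (0 at an unadjusted p under 0.05, and 0 in edgeR and DESeq2), with a median log2 FC of -0.22. Among all 13506 tested entries, limma called 0.0148% there. At an unadjusted p under 0.05, 140 of them were higher and 166 lower. In obese-labelled against nonobese-labelled mice, 11 of the 45 were higher and 0 lower, including Cd274, Cmpk2, Herc6, Ifi35, Ifit2, Lgals3bp, Parp12, Parp9, Rnf213 and Trim30a. Of all tested entries, 0.948% were called in this comparison. Of these, Trim30a had a log2 FC of 3.45 (SE 0.75, FDR = 0.0274) and Cmpk2, an enzyme of nucleotide synthesis in mitochondria, one of 1.44 (SE 0.35, FDR = 0.0649). Without obese 2 the count of called pathway genes was 35, without obese 1 or obese 3 it was 0, and without any 1 of the nonobese-labelled mice it was 3 or 4. Shares of all entries called in these fits are not given here. With all AAV-Cre mice against AAV-GFP, 0 of the 45 were called by limma, 9 had an unadjusted p under 0.05, and 1 was called by DESeq2 and by edgeR's likelihood ratio test. Among all 13506 tested entries, limma called 0.0444% there. At an unadjusted p under 0.05, 324 of them were higher and 258 lower.

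**Figure D4:**
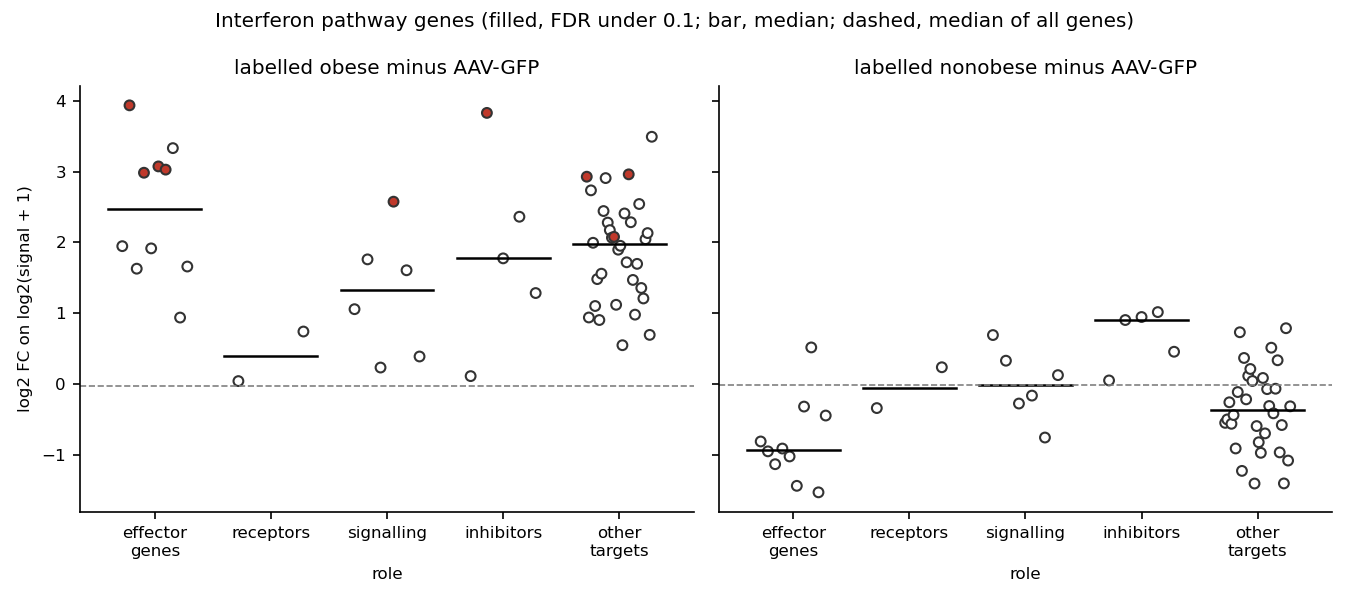
Log2 FC on the log2(signal + 1) scale (vertical axis) of the effector genes and of the other pathway genes by role (horizontal axis), for the obese label (left) and the nonobese label (right) against AAV-GFP, with filled points for an FDR under 0.1, bars for the median and a dashed line for the median of all tested entries. In the left panel the receptors lie nearest to 0, with a median of 0.39, and the other targets have a median of 1.97, while the right panel holds no filled point.

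The effector genes varied together across libraries, largely through obese 1 and obese 3. Over the 9 libraries, Pearson's r of log2(signal + 1) ran from 0.44 (Usp18 with Rtp4) to 0.97 (Ifit3 with Bst2) over the 45 pairs of effector genes. Each gene's r with the mean of the other 9 was 0.76 or more. Over the 7 libraries without obese 1 and 3, the same r was 0.83 for Oasl2, 0.72 for Ifi44, 0.63 for Parp14 and 0.60 for Irf7, but 0.05 for Usp18 and -0.14 for Rtp4. These are descriptions over few libraries that share scaling, and low counts limit the last of them.

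The entries most like the mean of the effector genes were then named, by r over the 9 libraries among 11797 entries with a mean signal of at least 5. They included Ly86 (r = 0.979), Cd274 (0.978), Rnf213 (0.978), Spn (0.977), H2-Q4 (0.977), Abca1 (0.975) and Gbp3 (0.975). Gbp3, an interferon-inducible GTPase, was at 381, 20.4 and 344 in obese 1, 2 and 3 and at 5.95 to 18.8 in the other 6 libraries. Spn, a surface protein of leukocytes, was at 26.3 and 19.1 in obese 1 and 3 and at 0 to 0.997 in the others. An r of at least 0.9 was reached by 144 entries, including 12 of 39 pathway genes compared.

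Markers of several cell types moved with the effector genes. The 10 effector genes summed to a signal of 1262 and 807 in obese 1 and 3, against 26.7 to 127 in the other 7 libraries. Over 8 microglial markers, all with an entry, the sum was 689 and 567 against 109 to 158, and C1qa was at 206 and 207 against 9.96 to 23.9, but P2ry12 in both mice lay within the 5.12 to 20.7 of the other 7. Over 7 of 8 macrophage and monocyte markers with an entry, the sum was 250.4 and 369 against 20.8 to 66.7, with Ly6c2 at 34.0 and 24.9 and at 0 in the other 7, and with Cd163 at 0 in all 3 obese-labelled mice, GFP 3 and nonobese 3. Over 5 of 8 T and NK cell markers with an entry, it was 91.8 and 63.9 against 2.35 to 12.7, with Cd3e at 29.0 and 9.99 and at 0 in 6 of the other 7. Cd3d, however, was highest in obese 2 (5.67), and Trbc2 in obese 2 (7.04) was near obese 3 (7.43). Over 5 of 8 B and plasma cell markers with an entry, the sum was 2606 and 4864 against 0.777 to 71.3, with Cd79a at 0 in the other 7. Igkc, at 2074 and 4033, was the largest part of that sum. Sdc1 in obese 1 (0.675) was below obese 2 (5.90).

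Plasmacytoid dendritic cells, known for a large interferon output, could not be judged, since of 5 markers only Siglech had an entry and microglia express it too. Siglech was at 5.62 and 2.56 in obese 1 and 3 and at 54.2 in obese 2, its highest value. Neuronal markers summed to 1744 and 1616 in obese 1 and 3 against 2249 to 2751. In obese 1, however, Stmn2 (246) and Slc32a1 (66.4) had their highest values of the 9 libraries. Astrocyte markers summed to 1496 and 1918 in obese 1 and 3 against 918 to 1202, with Gfap at 369 and 640.1 against 10.1 to 129.8. Aldoc, by contrast, was lower in obese 1 and 3 (261 and 272) than in the other 7, and Slc1a3 lay within their range. Endothelial markers summed to 156.8 and 151.9 in obese 1 and 3 against 71.7 to 130.5. However, Cldn5 in obese 1 (2.92) was the lowest of the 9 libraries, and Cdh5 in obese 3 (4.88) was below every AAV-GFP mouse. Oligodendrocyte markers summed to 1080 and 1055 in obese 1 and 3, within the 835 to 2556 of the other 7. The labelled tissue was checked with markers of the mediobasal hypothalamus, whose sum was 125.1 and 34.4 in obese 1 and 3 against 56.3 to 312. Agrp was at 0 in obese 1 and 3 and above 0 in the other 7. Ghrh, however, was highest in obese 1 (27.0), where Npy (44.3) and Pomc (36.0) lay within the AAV-GFP range. In obese 3, Npy (18.4) and Pomc (4.65) lay below that range. Nr5a1 was at 0 in obese 1, obese 3, GFP 3 and nonobese 3. GFP 3 and nonobese 3 had effector gene sums of 41.9 and 26.7, the lowest of their groups. The part of these markers and of the captured region in the effector gene values was not tested.

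**Figure D5:**
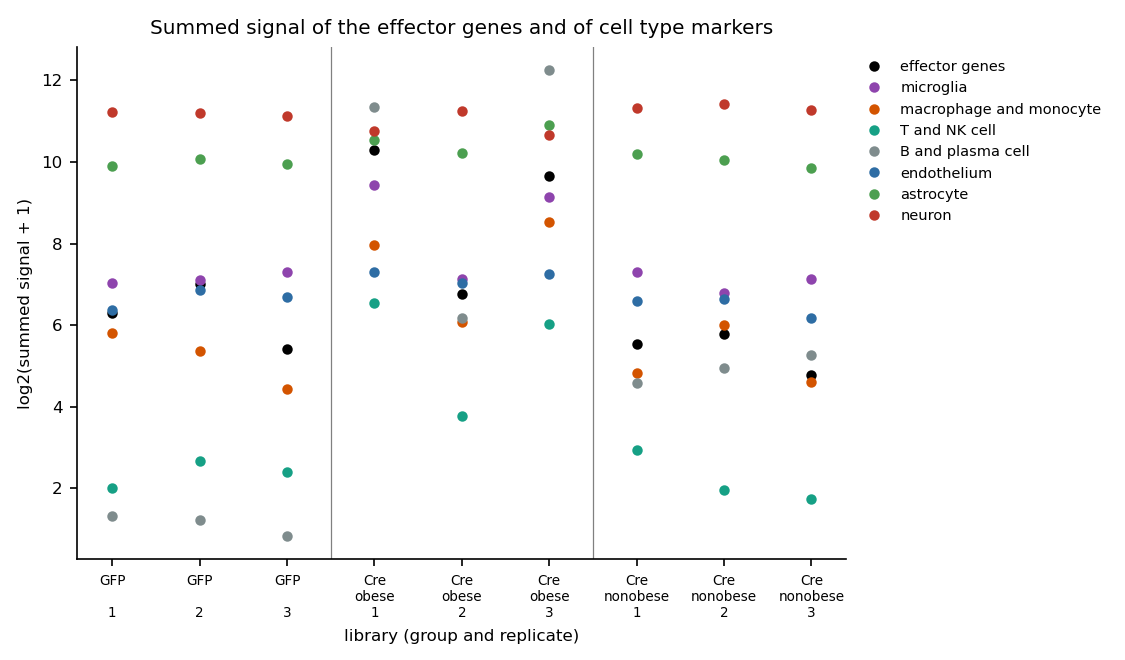
Summed signal as log2(sum + 1) (vertical axis) of the effector genes and of marker lists of 7 cell types in each library (horizontal axis), with a point for each list. The effector genes, microglia, macrophage and monocyte, T and NK cell, and B and plasma cell points are highest in obese 1 and obese 3. So are the endothelium and astrocyte points, while the neuron points are lowest there.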

How the data were processed

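RNA of laser-captured mediobasal hypothalamus from 9 mice was made into single libraries with a stranded low-input kit. The tools in the submitters' processing notes are CASAVA 1.7, TopHat2 2.0.11, HTSeq, edgeR and limma, with the build GRCm38. The values deposited by the authors are signal, namely reads per gene over a TMM-scaled library size on the scale of CPM. They are not plain CPM, for which the test had been planned, and the same test was kept. Whole reads were recovered from the steps between values (100% whole within 0.01 read) for the count tests. Symbols were found for 13446 of 13586 Ensembl identifiers. The least covered entry had 50 reads in all.

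Values were fitted as log2(signal + 1) with limma 3.58.1 (R 4.3.3) over the 3 groups with a variance trend, after leaving out entries that did not reach a signal of 1 in 3 libraries, which kept 13506. P-values were adjusted by Benjamini-Hochberg (FDR), and an FDR under 0.1 was a call, as in the study's methods. A log2 FC on this scale understates the change of low genes. A floor of 3 reads covers counting error only. Groups follow the weight labels. The fit was repeated with pseudocounts of 0.1 or 5, without the filter, with a filter at 5, on only the groups compared, after centring libraries on their medians, without the variance trend, with a replicate block, at an FDR under 0.05 and without each mouse. Recovered reads were tested with DESeq2 1.42.0 and with the quasi-likelihood and likelihood ratio tests of edgeR 4.0.16. The fits were tested on simulated data.

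The effector genes, the pathway and marker lists and the tests were chosen with earlier results of these data known. The genes named are all effector genes, pathway receptors, signalling genes and called genes, Socs3, and the 8 entries most like the effector gene mean. Socs1, Usp25 and Pias1, the overlapping gene models and single markers were named beyond this rule, after their values were seen. An item that these rules would also name is not reported here.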

Additional observations from a re-analysis of the deposited data

Results flagged for a closer look

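For 4 effector genes the effects in the obese-labelled and nonobese-labelled mice differed by limma's test of the difference between the labels. The log2 FC of obese-labelled against nonobese-labelled mice was 4.52 for Oasl2, 3.35 for Parp14, 3.90 for Irf7 and 4.89 for Ifi44 (FDR = 0.00668, 0.00668, 0.00683 and 0.00879). These genes were chosen with the obese-labelled values known, and none of the 4 passed the test without obese 1 or without obese 3.

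For Isg15 and Xaf1, all 3 obese-labelled mice were above and all 3 nonobese-labelled mice below the AAV-GFP mean of log2(signal + 1). The log2 FC between the labels was 2.94 for Isg15 and 2.11 for Xaf1 (FDR = 0.111 and 0.167), so the test of the difference did not pass the threshold. In obese 2 the signal was 6.13 for Isg15 and 9.30 for Xaf1, inside the AAV-GFP range for both.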

How the results depend on the processing

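The effector gene results depended most on single mice and on how the variance was modelled. The share of all entries called in each setting is not given beside the counts in this section. A larger count in another setting is therefore not a stronger result about these genes. In obese-labelled against AAV-GFP mice the 4 called effector genes became 1 with a pseudocount of 0.1 or at an FDR under 0.05, and 0 without a variance trend or with obese 1 and 3 left out, an alternative chosen after seeing the data. They were 0 to 10 with each mouse left out. The 5 called pathway genes became 1 with a pseudocount of 0.1, 2 with only the groups compared or at an FDR under 0.05, 0 without a variance trend or with obese 1 and 3 left out, 20 in edgeR's likelihood ratio test, 15 in DESeq2, and 0 to 29 with each mouse left out.

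In obese-labelled against nonobese-labelled mice the 4 effector genes became 0 without a variance trend or with obese 1 and 3 left out, 9 in the likelihood ratio test, 8 in DESeq2 and 0 to 10 with each mouse left out. The 11 pathway genes became 6 with a pseudocount of 0.1 or at an FDR under 0.05, 1 without a variance trend, 23 in the likelihood ratio test, 18 in DESeq2, 0 with obese 1 and 3 left out, and 0 to 35 with each mouse left out. With all AAV-Cre mice against AAV-GFP, effector genes called were 0 to 1 and pathway genes 0 to 8 with each mouse left out, and the likelihood ratio test and DESeq2 each called 1 pathway gene. With the replicate block, pathway genes called were 9 against AAV-GFP and 17 between the labels, and effector genes 5 and 7. Over all tested entries, the deviations of same-numbered mice from their group means correlated between -0.020 and 0.0897. Such values do not show whether these mice were matched by captured region, which was not tested. Nr5a1 was at 0 in replicate 3 of every group, and also in obese 1.

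With obese 1 and 3 left out, direction turned against AAV-GFP for Ifit3 (-1.98), Bst2 (-1.51) and Usp18 (-2.47), and between the labels for the same genes (-0.84, -0.69 and -0.93). In nonobese-labelled mice Rtp4 turned to -0.20 without GFP 1 and to -0.52 without nonobese 2 (range -0.52 to 1.49 with each mouse left out). With all AAV-Cre mice, obese 1 and 3 left out gave -0.39 for Oasl2, -1.56 for Ifit3, -0.23 for Isg15, -1.16 for Bst2 and -0.20 for Xaf1. There Ifit3 was also -0.42 without GFP 3, -0.31 without obese 1, -0.10 without obese 3 and -0.03 without nonobese 1 (up to 1.15 without obese 2), Isg15 was -0.0099 without GFP 3 (up to 0.78), and Bst2 was -0.23 with a pseudocount of 0.1. Usp18 turned to 0.11 with a pseudocount of 5, 0.17 and 0.15 in the quasi-likelihood and likelihood ratio tests, 0.14 in DESeq2, 0.25 without GFP 1 and 0.55 without obese 2 (down to -0.75 without obese 1). Leaving out obese 1 and 3 removes mice by construction; for the other settings the cause was not tested. With 3 mice per group and 13 of 90 values at or below 3 reads, depth limits what can be said of the low values.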
